A study of Mus musculus with 4 samples.

Results

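Msi1 (Musashi-1) is a protein that binds RNA, and its CLIP-seq peaks were examined on the RNA of 5 mouse genes of the Wnt pathway and the intestinal crypt: Lgr5, Ctnnb1, Myc, Ccnd1 and Cd44. The genes were chosen by name, with earlier results of these data known. A fixed window of the mouse build mm9 with the gene's strand stood for each of them. The 5 windows held 53 gene-strand peaks, made up of 8 of the 4863 peaks of wild-type replicate 1, 7 of the 5578 of wild-type replicate 2, 17 of the 189594 of TRE-Msi1 replicate 1 and 21 of the 40776 of TRE-Msi1 replicate 2.

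Wnt signalling keeps the stem cells at the base of the crypts dividing. When a Wnt ligand binds its receptors, beta-catenin, the protein made from Ctnnb1, is no longer destroyed, enters the nucleus and switches on target genes together with TCF factors. Lgr5 encodes a receptor for R-spondins, which strengthen Wnt signals, and is itself a marker of crypt base stem cells. Myc, a growth-promoting transcription factor, Ccnd1, which encodes the cell cycle protein cyclin D1, and Cd44, which encodes a hyaluronan receptor at the cell surface, are classical targets of beta-catenin. Musashi proteins bind short motifs in RNA, often in the part after the coding sequence, and affect translation.

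The assay was CLIP-seq: ultraviolet light (265 nm, 2 pulses of 400 mJ per cm2) joined protein to RNA in the cells, an Msi1 antibody recovered the protein, and material near 50 kD was taken for sequencing. The 2 wild-type libraries came from intestinal crypts of control mice without doxycycline. The 2 TRE-Msi1 libraries came from total intestinal epithelial cells of 2 individual mice that carry an Msi1 transgene behind a doxycycline-responsive element and had received doxycycline for 24 h. Genotype, doxycycline and the cells taken therefore changed together and cannot be told apart. Which cells drive the transgene is not stated in the labels. Each library was taken as a separate mouse, since the protocol speaks of 2 mice per group. A peak list holds called positions without read counts, so a gene with more RNA and a gene with more Msi1 on each RNA cannot be told apart, and the depth of each library is unknown. No library without the Msi1 antibody was analysed here. The labelled cell type could not be checked against markers, because no mm9 annotation was used.

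The list of TRE-Msi1 replicate 1 stood apart from the others. Its peaks had a median width of 40 bp against 74 to 75 bp, and 70.8% of them lay on the plus strand against 50.9 to 51.5%. Its list was also the longest. Each difference between the groups that is stated as a value is therefore also given without it.

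The windows, all written with mm9 coordinates, were chr10:114887000-115025500 on the minus strand for Lgr5 (138.5 kb, NCBI Gene 14160), chr9:120842000-120870000 on the plus strand for Ctnnb1 (28.0 kb, Gene 12387) and chr15:61816800-61822000 on the plus strand for Myc (5.2 kb, Gene 17869). Those of Ccnd1 (chr7:152115800-152125800, 10.0 kb, Gene 12443) and Cd44 (chr2:102651200-102742000, 90.8 kb, Gene 12505) lay on the minus strand. The 3′ end of a window is its highest coordinate on the plus strand and its lowest on the minus strand. Window ends are rounded, so a distance from the 3′ end is a distance from the window's edge and not from an annotated transcript end. Exons, introns and untranslated regions were not assigned, and no sequence of a peak is shown, because no mm9 genome was used here.

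Ctnnb1 carried the most peaks in every library. The wild-type libraries held 5 (replicate 1) and 3 (replicate 2), and the TRE-Msi1 libraries 10 (replicate 1) and 8 (replicate 2). Cd44 had 2, 2, 2 and 6 peaks in the same order of libraries, 12 in all, and Ccnd1 had 1, 2, 4 and 4, 11 in all. Which of these had more differed from library to library. Myc had 2 peaks in TRE-Msi1 replicate 2 and none in the other 3 libraries. Lgr5 had none in either wild-type library and 1 in each TRE-Msi1 library. Ctnnb1, Ccnd1 and Cd44 had peaks in all 4 libraries, whereas the stem cell receptor Lgr5 and the transcription factor gene Myc had peaks in TRE-Msi1 libraries alone.

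**Figure D1:**
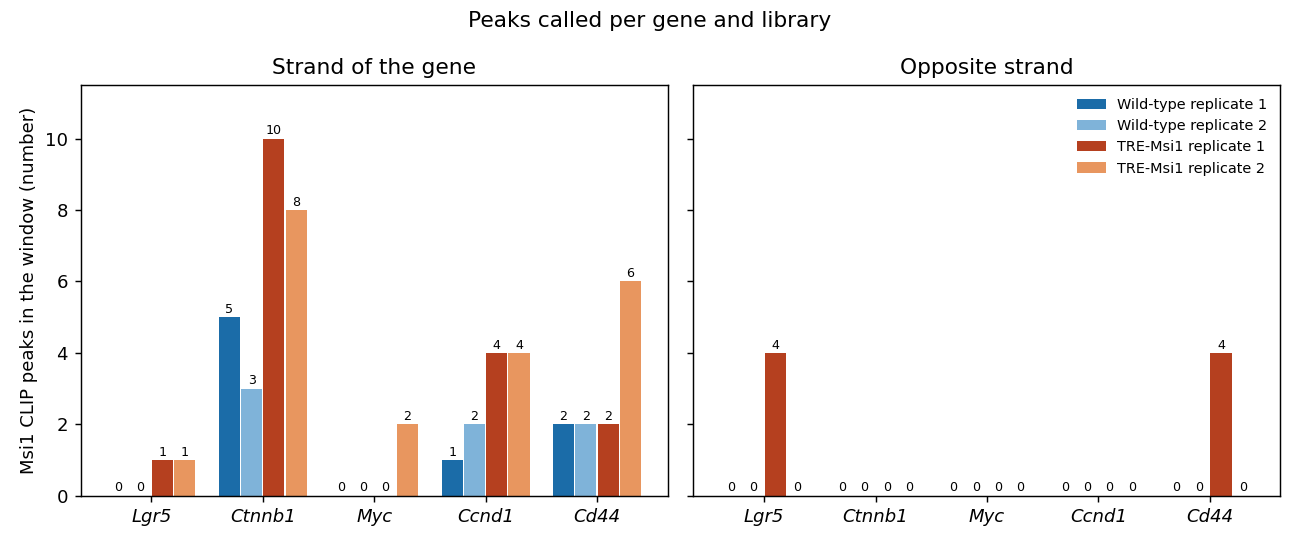
Number of Msi1 CLIP peaks (vertical axis) in the window of each gene (horizontal axis) for the 4 libraries, on the strand of the gene (left) and on the opposite strand (right). On the gene's strand Ctnnb1 has 3 to 10 peaks per library; the opposite strand has 4 peaks at Lgr5 and 4 at Cd44, all from TRE-Msi1 replicate 1.

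Per kilobase of window the order changed. Ccnd1 had 0.1, 0.2, 0.4 and 0.4 peaks per kb and Ctnnb1 0.179, 0.107, 0.357 and 0.286, in the library order used above. Ccnd1 was the denser in 3 libraries and Ctnnb1 in wild-type replicate 1, so these neighbours did not differ beyond the spread between libraries. Myc reached 0.385 peaks per kb in TRE-Msi1 replicate 2. Cd44 had 0.022 in 3 libraries and 0.0661 in TRE-Msi1 replicate 2, and Lgr5 at most 0.00722. Introns are part of the windows. The Myc window had no peak in the other 3 libraries.

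The opposite strand served as a background within the same windows. It held no peak in either wild-type list or in TRE-Msi1 replicate 2 for any of the 5 genes. An empty stretch is usual in these lists. On the gene's strand, 1.77% and 2.55% of Ctnnb1-length stretches held a peak in wild-type replicates 1 and 2, and 10.5% in TRE-Msi1 replicate 2. For the Cd44 length it was 4.79%, 7.55% and 23.1%. These shares were not computed for the opposite strand. In TRE-Msi1 replicate 1 it held 4 peaks at Lgr5 and 4 at Cd44, more than the gene strand, which held 1 and 2. At Ctnnb1, Myc and Ccnd1 it held none in that library either. For Ctnnb1 and Myc the opposite strand is the minus strand, where fewer peaks of that list lie. Since the opposite strand of Lgr5 and Cd44 is the plus strand, where most peaks of that list lie, the 4 peaks can be set against other stretches of that strand: 77.0% of stretches as long as the Lgr5 window and 52.7% of those as long as the Cd44 window held at least 4.

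A second background was the genome, cut end to end into stretches of the length of each window on the strand of the gene. It covered the numbered chromosomes and X, and the gene's own locus was not left out. Many such stretches hold no transcribed RNA, so the shares describe how common a count is and do not compare expressed genes with each other. The genes were chosen with earlier results of these data known, so the shares are not those of unselected genes. Ctnnb1 was among the richest stretches in each library. Of 94229 stretches, 0.0414% and 0.0828% held as many peaks or more in the wild-type libraries (replicates 1 and 2), and 0.656% and 0.219% did so in the TRE-Msi1 libraries. For Ccnd1 the shares were 0.669%, 0.0735%, 0.807% and 0.279% of 263842 stretches. The 2 Myc peaks of TRE-Msi1 replicate 2 were matched by 0.727% of 507347 stretches. These shares depend on which stretches are counted. Among stretches with a peak in at least 1 other list they rose to 3.62%, 0.392%, 4.6% and 1.53% for Ccnd1 and to 2.01% for Myc, and for Ctnnb1 to 0.0604%, 0.121%, 1.67% and 0.322%.

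Cd44 and Lgr5 gave another picture. For Cd44 the counts were matched by 1.79% and 1.25% of 29050 stretches in the wild-type libraries and 3.47% in TRE-Msi1 replicate 2. In TRE-Msi1 replicate 1, in contrast, 38.9% of stretches held the 2 peaks of Cd44 or more. The single Lgr5 peak was matched by 78.7% of 19042 stretches in TRE-Msi1 replicate 1 and by 30.5% in TRE-Msi1 replicate 2. Both Lgr5 counts, and the Cd44 count of TRE-Msi1 replicate 1, are thus common for stretches of that length in those lists.

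On Ctnnb1, the RNA of beta-catenin, peaks gathered at the 3′ end of the window in all 4 libraries. Windows include introns, so the part of a window taken up by the last 2 kb, here and below, is not its part of the spliced RNA. How often peaks of other genes lie so near the 3′ end was not computed. The gene and its window were chosen with earlier results of these data known, so this gathering is not that of an unselected gene. Within the last 2 kb, which is 7.14% of the window, lay 3 of 5 and 2 of 3 peaks of the wild-type replicates 1 and 2, and 7 of 10 and 4 of 8 peaks of the TRE-Msi1 replicates 1 and 2. All of these but 1 ranked above every other Ctnnb1 peak of their own list; the exception was a peak of TRE-Msi1 replicate 1 at percentile 58.3. The 2 in wild-type replicate 2 had the authors' scores 28 and 31, at percentiles 97.1 and 97.5 of that list, against 66.5 for its remaining Ctnnb1 peak. In TRE-Msi1 replicate 2 the 4 peaks had scores of 19 to 72 at percentiles 96.2 to 99.8, and the other 4 lay between percentiles 9.2 and 92.4. In TRE-Msi1 replicate 1 the 7 peaks had a median percentile of 90.3 (58.3 to 98.3) and the other 3 one of 32.7 (32.7 to 72.3). The scores of wild-type replicate 1 are all 0. Its row order is taken in place of the score, because later rows had lower scores in each other list (Spearman's rho -0.905 to -0.989, over all peaks of a list). The 3 peaks stood at rows 60, 230 and 296 of 4863, the other 2 at rows 2213 and 2698. The strongest Ctnnb1 peak of TRE-Msi1 replicate 1, with a score of 5.5, was at chr9:120868776-120868815.

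**Figure D2:**
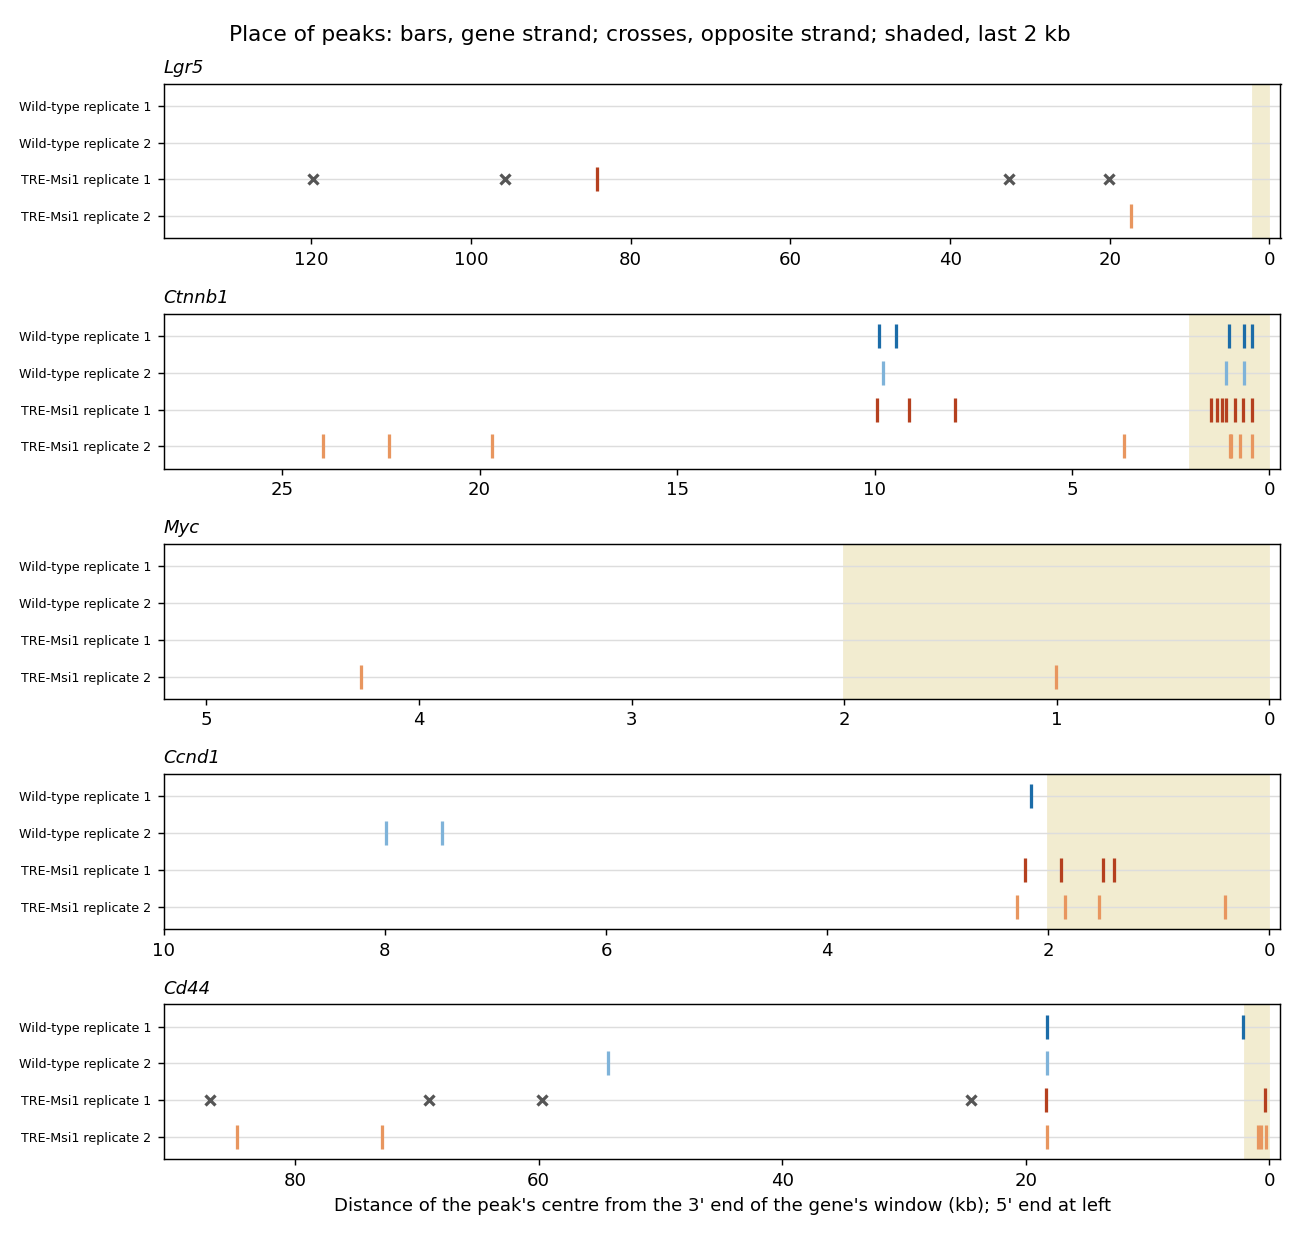
Place of each peak in the 5 windows: the horizontal axis is the distance of the peak's centre from the 3′ end of the window in kb, with the 5′ end at the left, and each line is 1 library. Bars are peaks on the gene's strand, crosses those on the opposite strand, and the last 2 kb are shaded. Ctnnb1 peaks of all 4 libraries lie in the shaded part, and the lone Lgr5 peaks lie far from it.

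Part of the Ctnnb1 peaks, 11 of 26, overlapped a peak from another library, all of them in the last 2 kb. Sharing was uneven between pairs. Wild-type replicate 1 shared 2 of its 5 with each of the other lists. For wild-type replicate 2, 2 of 3 had an overlap in TRE-Msi1 replicate 1, but 0 of 3 in TRE-Msi1 replicate 2. Between the TRE-Msi1 libraries, 1 of the 10 in replicate 1 had an overlap in replicate 2. When peaks of any list at most 100 bp apart were joined, 12 peaks of all 4 libraries formed 1 position at chr9:120868652-120869383. It was 732 bp long and centred 983 bp from the 3′ end. It is a chain of neighbouring peaks and breaks up at a joining distance of 50 bp. A second one at chr9:120869524-120869607, 435 bp from the end, joined 1 peak each of wild-type replicate 1 and both TRE-Msi1 libraries. Wild-type replicate 2 had no peak there, its nearest lying 140 to 150 bp from those peaks of wild-type replicate 1 and TRE-Msi1 replicates 1 and 2. The strongest Ctnnb1 peak of TRE-Msi1 replicate 2, with a score of 72, was at chr9:120868991-120869065 and overlapped the wild-type replicate 1 peak at chr9:120868929-120869002. The best agreement between wild-type libraries was at chr9:120869308-120869381 in replicate 1 and chr9:120869309-120869383 in replicate 2, where a TRE-Msi1 replicate 1 peak overlapped too and the nearest TRE-Msi1 replicate 2 peak ended 26 and 27 bp away. The other overlapping peaks of the large position were at chr9:120868871-120868945 in wild-type replicate 2, chr9:120868887-120868926 and chr9:120869300-120869339 in TRE-Msi1 replicate 1, and chr9:120868954-120869028 in TRE-Msi1 replicate 2. Those of the position nearest the end were at chr9:120869534-120869607 in wild-type replicate 1, chr9:120869531-120869570 in TRE-Msi1 replicate 1 and chr9:120869524-120869598 in TRE-Msi1 replicate 2. In all, 11 of the 16 peaks in the last 2 kb overlapped a peak of another library by at least 1 bp.

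Farther inside Ctnnb1, 0 of 10 peaks overlapped a peak of another library. A position at chr9:120860043-120860244, 9857 bp from the 3′ end, nevertheless brought 1 peak each of both wild-type libraries and of TRE-Msi1 replicate 1 within 6 to 7 bp of a neighbour. Its wild-type peaks were at chr9:120860090-120860163 (replicate 1) and chr9:120860170-120860244 (replicate 2), and the remaining peak of wild-type replicate 1 was at chr9:120860516-120860589. The nearest TRE-Msi1 replicate 2 peak was 6030 bp from the wild-type replicate 2 peak of that position and 5685 bp from that remaining peak. TRE-Msi1 replicate 2 had instead 3 peaks in the 5′ part of the window, at 19688, 22305 and 23965 bp from the 3′ end, and 1 at 3688 bp. The first 3 of these were at least 9693 bp from any peak of another library.

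Ccnd1 peaks of the TRE-Msi1 libraries lay near the 3′ end and in matching places, with wild-type peaks in part elsewhere. In TRE-Msi1 replicate 1 the 4 peaks were 1410, 1509, 1885 and 2209 bp from the 3′ end, and in TRE-Msi1 replicate 2 they were 406, 1545, 1851 and 2280 bp from it. The last 2 kb, 20.0% of this window, held 3 of 4 peaks in each. The replicate 1 peaks were chr7:152117191-152117230, chr7:152117290-152117329, chr7:152117666-152117705 and chr7:152117990-152118029. Overlaps between the TRE-Msi1 libraries were found at chr7:152117308-152117382 and chr7:152117614-152117688, as positions of the replicate 2 peaks, whose other 2 were chr7:152116169-152116243 and chr7:152118043-152118117. The single peak of wild-type replicate 1, at chr7:152117924-152117997 and 2160 bp from the 3′ end, overlapped a TRE-Msi1 replicate 1 peak and lay 45 bp from one of TRE-Msi1 replicate 2. The 2 peaks of wild-type replicate 2 (chr7:152123245-152123319 and chr7:152123755-152123829) were 7482 and 7992 bp from the 3′ end, more than 5 kb from any peak of the other lists. The wild-type libraries therefore shared no Ccnd1 position. Scores were moderate, at percentiles 57.5 to 89.1 in TRE-Msi1 replicate 2, 32.7 to 77.0 in TRE-Msi1 replicate 1 and 58.7 to 73.3 in wild-type replicate 2.

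Joined at 100 bp, Cd44 had 1 position with peaks of all 4 libraries, and it was not at the 3′ end. At chr2:102669414-102669587, 18300 bp inside the window, the peaks of wild-type replicate 1 (chr2:102669414-102669487), wild-type replicate 2 and TRE-Msi1 replicate 2 (both chr2:102669416-102669490) nearly coincided. The TRE-Msi1 replicate 1 peak at chr2:102669548-102669587 began 57 bp beyond the latter pair and overlapped none of them. That peak had a score of 18.1 and was the seventh strongest of its whole list, whose highest score is 19.9. The same position had a score of 23 in wild-type replicate 2 (percentile 96.3) and 20 in TRE-Msi1 replicate 2 (percentile 96.7), but stood only at row 2156 in wild-type replicate 1. It was the strongest Cd44 peak in each of the 3 lists with usable scores.

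**Figure D3:**
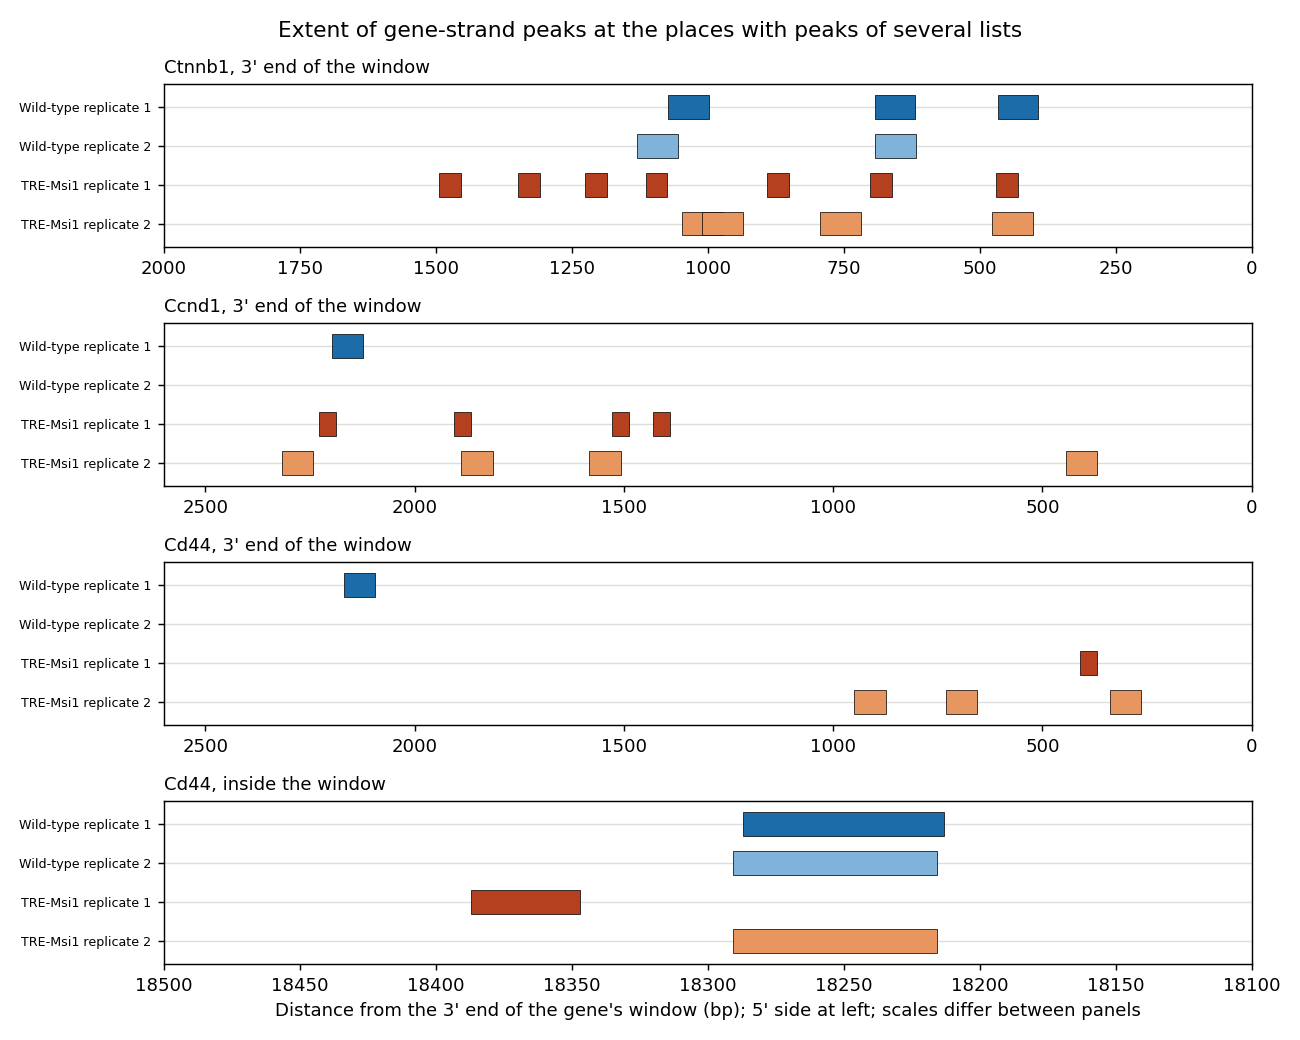
Extent of each gene-strand peak (boxes, to scale) by distance from the 3′ end of the window in bp, with 1 line per library, for the 3′ ends of Ctnnb1, Ccnd1 and Cd44 and for the position inside Cd44. At the inner Cd44 position 3 libraries coincide and the TRE-Msi1 replicate 1 peak begins 57 bp from 2 of them.

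At the 3′ end of Cd44 both TRE-Msi1 libraries and neither wild-type library had peaks. The last 2 kb, 2.2% of the window, held 3 of the 6 peaks of TRE-Msi1 replicate 2, 302, 693 and 912 bp from the end, and 1 of the 2 of TRE-Msi1 replicate 1, 389 bp from the end (chr2:102651570-102651609). The TRE-Msi1 replicate 1 peak and the outermost replicate 2 peak (chr2:102651465-102651539, percentile 95.1) were 30 bp apart and did not overlap. The other 2 of replicate 2 were at chr2:102651856-102651930 and chr2:102652075-102652149. Wild-type replicate 1 had a peak 2132 bp from the end (chr2:102653296-102653369), outside this stretch. The remaining Cd44 peaks were single: 1 of wild-type replicate 2 at 54293 bp (chr2:102705456-102705530) and 2 of TRE-Msi1 replicate 2 at 72828 bp (chr2:102723991-102724065) and 84793 bp (chr2:102735956-102736030), each over 18 kb from the nearest peak of another list.

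The 2 Myc peaks, both of TRE-Msi1 replicate 2, were at chr15:61817690-61817764 (score 9, percentile 77.0), 4273 bp from the 3′ end, and at chr15:61820957-61821031 (score 6, percentile 43.3), 1006 bp from it. The last 2 kb are 38.5% of this short window. Neither had a counterpart in another library.

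The Lgr5 peaks had no counterpart either. That of TRE-Msi1 replicate 1, at chr10:114971144-114971183, lay 84163 bp from the 3′ end with percentile 47.7 of its list. The one of TRE-Msi1 replicate 2, at chr10:114904331-114904405, lay 17368 bp from the end with percentile 43.3. They were 66738 bp apart, so the libraries shared no position on the RNA of this stem cell receptor, and no library had a peak in its last 2 kb.

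**Figure D4:**
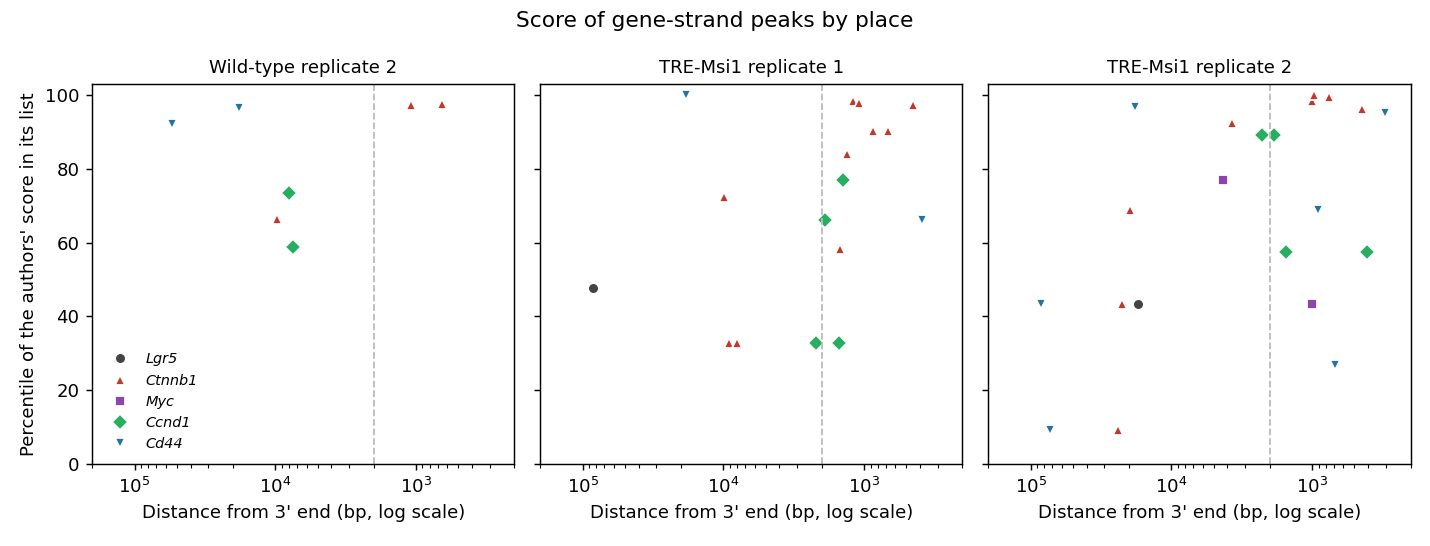
Percentile of the authors' score within its own list (vertical axis) against the distance of the gene-strand peak from the 3′ end of the window (horizontal axis, log scale), for the 3 lists whose scores vary. The dashed line marks 2 kb. Ctnnb1 peaks to its right lie at percentiles 58.3 to 99.8, and the Lgr5 peaks at 43.3 and 47.7.

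Over the 5 genes, 27 of the 53 peaks lay within 2 kb of the 3′ end, and 20 overlapped a peak of another library. Neither share was computed over all peaks of the lists. By library, 3 of 8, 2 of 7, 11 of 17 and 11 of 21 peaks were in the last 2 kb, and all 5 wild-type ones were on Ctnnb1. That last point depends on the 2 kb line, since wild-type replicate 1 had a Cd44 peak at 2132 bp and a Ccnd1 peak at 2160 bp. Joined at 100 bp, the 53 peaks formed 29 positions, of which 2 had peaks of all 4 libraries, 3 of 3 libraries, 3 of 2 libraries and 21 of 1 library. Positions with at least 3 libraries were 3 of 11 on Ctnnb1, 1 of 6 on Ccnd1, 1 of 8 on Cd44, 0 of 2 on Myc and 0 of 2 on Lgr5. In total 5 of 29, or 17.2%, had at least 3 libraries, against 0.899% of the 222141 positions joined in the same way over all chromosomes. Of the latter, 79.1% had peaks of TRE-Msi1 replicate 1 alone, and they were not limited to stretches with a wild-type peak. The 17.2% and the 0.899% thus come from sets of positions with an unlike make-up of lists, and their gap is not a like-for-like comparison. Counted in bases, 376 of the 2818 bp under a peak were shared by at least 2 libraries, 248 of them on Ctnnb1, 75 on Cd44 and 53 on Ccnd1. No base was under a peak in all 4 libraries.

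Between pairs of libraries, sharing was counted by overlaps of at least 1 bp. Of the peaks in the 5 windows, 3 of 8 of wild-type replicate 1 (37.5%) overlapped one of wild-type replicate 2, which is 42.9% of the latter. Of TRE-Msi1 replicate 2, 3 of 21 (14.3%) overlapped one of TRE-Msi1 replicate 1, which is 17.6% of the latter. Across groups, 3 of the 8 peaks of wild-type replicate 1 were found in each TRE-Msi1 library. Wild-type replicate 2 had 2 of its 7 peaks (28.6%) found in TRE-Msi1 replicate 1 and 1 of 7 (14.3%) in the second TRE-Msi1 library. The Ctnnb1 3′ end supplied 2 of the 3 overlaps between the wild-type libraries, and the inner Cd44 position the other 1. The same shares over all peaks of the lists were not computed. These values therefore describe the 5 windows and do not tell whether their sharing differs from that of other peaks.

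The groups, which differ in genotype, doxycycline and the cells taken, were compared gene by gene as log2(peaks + 1). The two-sided exact permutation test used cannot give less than p = 0.333 with 2 against 2 libraries. On the log2 scale Ctnnb1 was at 2.29 ± 0.414 (SD, n = 2) in the wild-type and 3.31 ± 0.205 (SD, n = 2) in the TRE-Msi1 libraries. The groups did not overlap, with 10 and 8 against 5 and 3 peaks, and the difference of 1.02 (0.88 without TRE-Msi1 replicate 1) had an exact permutation p = 0.333. Exact 95% Poisson intervals, which cover counting error only, were 4.8 to 18.4 and 3.45 to 15.8 peaks in TRE-Msi1 and 1.62 to 11.7 and 0.619 to 8.77 in wild-type libraries, so each interval of one group overlapped those of the other. Among the 558 stretches of this length and strand with a peak in both wild-type lists, 54.5% likewise had more peaks in both TRE-Msi1 lists than in either wild-type list. The higher count of Ctnnb1 is thus as common as not among such stretches.

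Ccnd1 behaved in the same manner, at 4 and 4 against 1 and 2 peaks. Its log2 value was 1.29 ± 0.414 (SD, n = 2) in the wild-type and 2.32 ± 0.00 (SD, n = 2) in the TRE-Msi1 libraries. This was a difference of 1.03 with and without TRE-Msi1 replicate 1 and an exact permutation p = 0.333. Of 454 stretches of its length with a peak in both wild-type lists, 33.5% met the same criterion. For Lgr5, with 1 and 1 against 0 and 0 peaks, the difference was 1.00 with and without TRE-Msi1 replicate 1, again with an exact permutation p = 0.333, and 28.8% of the 15766 stretches with a peak in any list met the criterion. Counts of this kind were thus frequent in stretches of the same length.

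For Cd44 and Myc the groups touched. Cd44 had 2 and 6 against 2 and 2 peaks, a difference of 0.61 on the log2 scale with an exact permutation p = 1. The difference was 1.22 when TRE-Msi1 replicate 1 was left out and 0.00 when replicate 2 was. Among 630 stretches of its length with a peak in both wild-type lists, 69.5% had more peaks in both TRE-Msi1 lists, and Cd44 did not. Myc had 0 and 2 against 0 and 0, a difference of 0.79 with an exact permutation p = 1. It was 1.58 when TRE-Msi1 replicate 1 was left out and 0.00 when replicate 2 was. Only 3.88% of the 113454 stretches of its length with a peak in any list had more peaks in both TRE-Msi1 lists, and Myc was not among those that did.

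Set against the length of each list, the direction turned for the 3 genes with wild-type peaks. The TRE-Msi1 lists were 22.1 times as long on average, and 7.31 times for replicate 2 alone. A window with wild-type peaks is therefore likely to have a smaller share in them whatever the gene. Ctnnb1 supplied 10.3 and 5.38 of every 10000 peaks in wild-type replicates 1 and 2, and 0.527 and 1.96 in TRE-Msi1 replicates 1 and 2. Both TRE-Msi1 shares were below both wild-type shares, with a difference of -6.59 (-5.87 without TRE-Msi1 replicate 1; exact permutation p = 0.333, n = 2 per group). Cd44 went from 4.11 and 3.59 to 0.105 and 1.47 per 10000, a difference of -3.06 (-2.38 without TRE-Msi1 replicate 1). Ccnd1 went from 2.06 and 3.59 to 0.211 and 0.981, a difference of -2.22 (-1.84 without TRE-Msi1 replicate 1). The exact permutation p was 0.333 for both. A smaller share in both TRE-Msi1 lists was the rule for stretches with a peak in both wild-type lists, met by 92.7% of those of the Ctnnb1 length, 77.3% of the Cd44 length and 98.9% of the Ccnd1 length. Lgr5 and Myc, without a wild-type peak, had shares of at most 0.245 and 0.49 per 10000.

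With all lists cut to their 4863 strongest peaks, the Ctnnb1 counts were 5, 3, 2 and 5, those of Cd44 2, 2, 1 and 2, and those of Ccnd1 1, 2, 0 and 1, in the library order used above. No Lgr5 or Myc peak was left. The log2 differences were -0.21 for Ctnnb1, -0.29 for Cd44 and -0.79 for Ccnd1. The sign for Ctnnb1 rested on single libraries: it was 0.29 without TRE-Msi1 replicate 1 and 0.08 without wild-type replicate 1. Without TRE-Msi1 replicate 1 the difference was 0.00 for Cd44 and -0.29 for Ccnd1. The Ccnd1 count of TRE-Msi1 replicate 2 rested on a tie. Of its peaks, 2 had the same score of 12, at ranks 4822 and 4865 only by file order. The cut kept only the one at rank 4822, so the sign for Ccnd1 without TRE-Msi1 replicate 1 is not firm either.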

How the data were processed

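One peak list per library was deposited, giving position, strand and a score of the authors whose unit is not stated. Per the submitters' processing notes, Bowtie, HOMER and mm9 were used; no version, setting or role is named. Scores served only to rank peaks within a list, ties in file order, and wild-type replicate 1, with all scores 0, was ranked by row. Libraries were grouped by title. All 5 members are named with every count, and peaks were given by position where a window held at most 6 of a list, otherwise the strongest, the shared and the one nearest the 3′ end. A peak belonged to a window if it overlapped it by at least 1 bp; percentiles are mid-ranks. Starts were made 1-based. The members, windows and tests were chosen with earlier results of these data known, and the 100 bp joining distance after positions were seen. Gene identifiers are from RefSeq's table. Further pathway genes and cell type markers were not analysed here, since they need mm9 positions. Counting was checked on simulated lists and against bedtools 2.31.1 (0 of 40 window counts differed). Alternatives were the top 25% of each list, equal lengths, merging within 50 bp, wider windows, either strand, whole containment, other 3′ distances, other overlap rules, a pseudocount of 0.5, a replicate block and dropping single libraries (with equal lengths too, added after seeing the data). Tools were scipy 1.17.1, matplotlib 3.10.9, pandas 2.3.3 and numpy 2.4.6 under Python 3.11.15.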

Additional observations from a re-analysis of the deposited data

Results flagged for a closer look

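Peaks on the strand opposite to the gene, which no comparison of the groups uses, were seen in TRE-Msi1 replicate 1 alone, with 4 at Lgr5 and 4 at Cd44 against 0 in each wild-type library and in TRE-Msi1 replicate 2. The Lgr5 ones lay 20048 to 119829 bp from the 3′ end at score percentiles 12.0 to 92.8, and the Cd44 ones 24516 to 86988 bp from it at percentiles 32.7 to 90.3. Their part in the gene-strand counts of that library was not tested.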

How the results depend on the processing

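Across the alternatives, the log2 difference between groups changed sign where every list was cut to 4863 peaks, to -0.21 for Ctnnb1, -0.79 for Ccnd1 and -0.29 for Cd44. The cut removes most peaks of the longer lists, and the Ccnd1 value depends on the order of a score tie. Why the sign changed was not tested. With that cut the log2 difference was 0.00 for Lgr5 and Myc, as was the difference per 10000 peaks. With the top 25% of each list the difference was 0.00 for Lgr5 on both scales. The cut left 3 and 8 peaks of TRE-Msi1 replicates 1 and 2 in the windows, and the top 25% left 3 of wild-type replicate 1, 8 of TRE-Msi1 replicate 1 and 10 of TRE-Msi1 replicate 2. Leaving out each library in turn gave log2 differences of 0.73 to 1.31 for Ctnnb1, 0.74 to 1.32 for Ccnd1, 1.00 to 1.00 for Lgr5, 0.00 to 1.22 for Cd44 and 0.00 to 1.58 for Myc, both zeros without TRE-Msi1 replicate 2. Per 10000 peaks the ranges were -9.04 to -4.13, -2.99 to -1.46, 0.0527 to 0.245, -3.74 to -2.38 and 0.00 to 0.49. Peaks near the 3′ end numbered 1 (wild-type replicate 2), 4 and 7 (TRE-Msi1 replicates 1 and 2) within 1 kb, and 5 in wild-type replicate 1 within 4 kb. Peaks with a counterpart rose to 15 and 11 in TRE-Msi1 replicates 1 and 2 within 500 bp and fell to 2 and 3 with a reciprocal overlap of 50%. The replicate block left each difference as it was (Ctnnb1 1.02, exact sign-flip p = 0.5, the smallest possible). The numbers are not known to pair animals, and the correlation of replicate deviations over stretches was 0.02 to 0.07. With stretches limited to those with a peak in another list, the shares with as many peaks were 0.0604 to 1.67% for Ctnnb1, 0.392 to 4.6% for Ccnd1, 2.01% for Myc, 1.75 to 58.3% for Cd44 and 34.4 and 87.9% for Lgr5. Joining at 50 bp, chosen after seeing the data, gave 6 positions with at least 3 libraries. At 50 bp the inner Cd44 position no longer takes in the peak of TRE-Msi1 replicate 1, which lies 57 bp from its nearest neighbours. The 732 bp Ctnnb1 position breaks into smaller ones, for instance at the 55 bp gap before a wild-type replicate 2 peak. The rise from 5 to 6 comes from this break and not from more sharing. In lists of equal length, a combination also added later, leaving out each library gave -0.71 to 0.29 for Ctnnb1 (0.08 without wild-type replicate 1, 0.29 without TRE-Msi1 replicate 1), -1.29 to -0.29 for Ccnd1, -0.58 to 0.00 for Cd44, and 0.00 for Lgr5 and Myc. The value of -0.29 for Ccnd1, without TRE-Msi1 replicate 1, depends on the order of a score tie. The other 118 recomputed group differences and library totals kept their direction or stayed within 1.5 times. That does not mean the groups stayed apart. With the top 25% of each list the Ccnd1 log2 difference was 0.79 with an exact permutation p = 0.667, so its groups no longer lay apart. Nor did those of Ccnd1 and Cd44 per 10000 peaks. Read depth is unknown, so what depth limits could not be assessed.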
